A study of Rattus norvegicus with 16 samples.

Results

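The comparison described here sets the CA1 field of the rat hippocampus 3 h into a time course of oxidative stress against the same field at its starting point, T0. It rests on 4 of the 16 arrays of the series, which are CA1 T3h replicates 1 and 2 and CA1 T0 replicates 1 and 2, and it is described over all 15866 probe sets that are not controls. These stand for 10411 named genes. The samples were total RNA of CA1 taken from organotypic hippocampal slice cultures of rat (Rattus norvegicus), and both groups share this tissue, the standard Affymetrix procedure and a two-cycle labelling that amplifies small amounts of RNA. The labels call the replicates biological and give no strain, age, agent or dose, and they do not say how T0 cultures were handled or whether replicates came from separate animals. P-values therefore measure only the spread between these samples, which may be technical. Arrays of CA3 at the same times (2 per time) and of CA1 at 30 min and 12 h are given beside the comparison where they bear on it.

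A slice culture keeps pyramidal neurons, interneurons, astrocytes, microglia and oligodendrocyte lineage cells side by side, and its glia and progenitors can divide. Oxidative stress is known to start several programmes of transcription. Immediate early genes such as Fos answer within minutes through kinases. The integrated stress response acts through the transcription factor ATF4 and its target Ddit3. NRF2 drives genes of glutathione and thioredoxin metabolism, and damage checkpoints stop the cell cycle. CA1 pyramidal neurons are known as the hippocampal neurons most sensitive to oxidative and ischaemic injury.

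Values are log2 signals after robust multi-array averaging (RMA), in which a difference of 1 is a 2-fold difference of signal. The median log2 signal of an array lay between 5.81 and 5.94, so values near 4 are low on these arrays. Changes are T3h minus T0 with the moderated standard error of limma's fit of all 16 arrays, and p-values were adjusted by the Benjamini-Hochberg method over all 15866 probe sets. Where both T3h arrays lay beyond both T0 arrays on the same side, the groups are said not to overlap.

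The 2 arrays labelled CA1 T3h differed more from each other than those of CA1 T0. Over probe sets they correlated at 0.911, against 0.969 for the T0 arrays, and 2535 probe sets (15.98%) differed by more than 1 on the log2 scale, against 745 (4.7%) at T0. T3h replicate 2 stood apart. Its GAPDH 3' minus 5' signal, which grows as RNA is degraded or shortened, was 3.93, the highest of the series, against 1.99 in T3h replicate 1 and 2.08 and 3.08 in T0 replicates 1 and 2. The spread of its log2 values was the lowest of the 16 arrays, with an SD of 1.72, against 1.90 in T3h replicate 1 and 1.86 and 1.89 at T0. The CA3 array of T3h replicate 2 had a GAPDH difference of 3.93 as well. Many of the results below are therefore given for each T3h array, and the others only as the change between the group means.

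The differences of T3h from T0 within replicate number 1 and within number 2, which share no array, correlated over the 10411 genes at 0.10. Within number 1, 260 genes were higher and 162 lower by at least 1 on the log2 scale, and within number 2, 470 were higher and 939 lower. Of these, 26 were higher and 77 lower in both, while 27 were higher by 1 in number 1 and lower by 1 in number 2, and 24 the other way round. The difference within number 2 of CA1 correlated at 0.75 with that within number 2 of CA3, and the difference within number 1 at 0.33 with that of CA3. These are descriptions across genes, which are not independent replicates, and arrays of the same number and time may share slices.

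**Figure D1:**
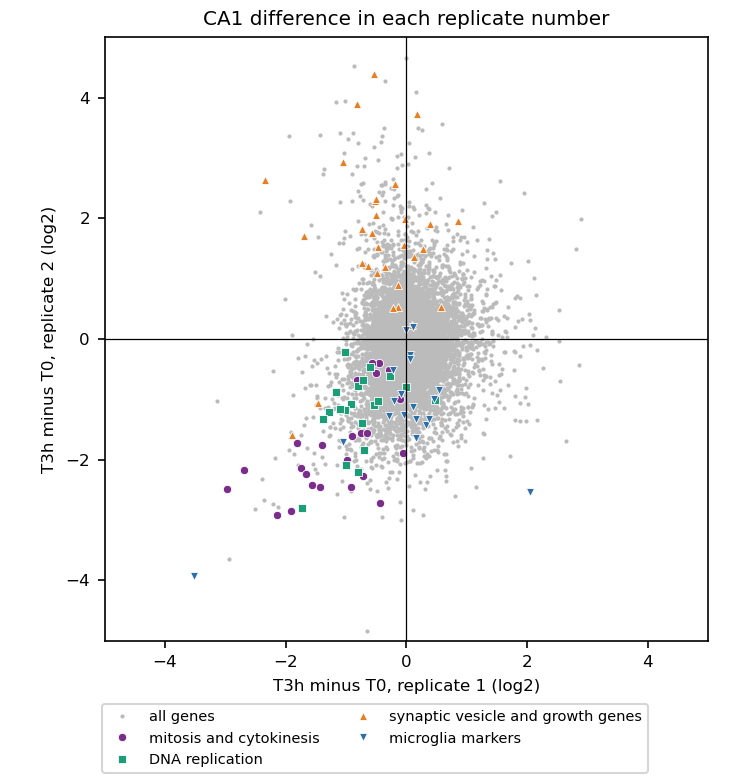
Log2 difference of CA1 T3h from T0 within replicate number 2 (y axis) against that within number 1 (x axis) for 10411 genes, with 4 lists coloured. Most genes of mitosis and DNA replication lie below 0 on both axes, while most synaptic genes lie above 0 on the y axis and near or below 0 on the x axis.

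Past an adjusted p of 0.05, 1 probe set was lower at 3 h (0.0063% of those tested) and 0 were higher (0%; limma; 249 higher, or 1.57%, and 475 lower, or 2.99%, at an unadjusted p under 0.05; 4.56% in both directions). The groups did not overlap for 1586 genes that were higher (15.2%) and 1614 that were lower (15.5%). With a change of at least 1 besides, these counts were 83 (0.797%) and 199 (1.91%). The median change over all genes was 0.01. Counts for gene lists below are to be read against these shares. The lists were chosen with earlier results of these data known, so they are no independent test.

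The gene that passed was Pimreg, a regulator of mitotic chromosome segregation. Its log2 signal was 4.50 and 4.80 in T3h replicates 1 and 2, against 7.46 and 7.28 in T0 replicates 1 and 2. Both T3h arrays lay far below both T0 arrays, and replicates lay close together. Pimreg fell by 2.72 ± 0.30 on the log2 scale (limma, adjusted p = 0.0469, n = 2 arrays each), to 0.152 of its T0 signal. The call was lost when any of the 4 arrays was left out (its adjusted p then lay between 0.12 and 0.586), while its direction was kept.

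Genes of mitosis and cytokinesis were lower at 3 h in both T3h arrays. All 24 measured genes of this list had both T3h arrays below both T0 arrays (15.5% of all genes), 19 were lower at an unadjusted p under 0.05 (3.59% of all genes), and 1 passed over all probe sets. The list holds Pimreg, and like the others it was chosen with earlier results of these data known. The median change of the list was -1.54. Against the mean of the T0 arrays, it was -1.13 in T3h replicate 1 and -1.70 in T3h replicate 2. The difference from T0 was not particular to 3 h. The median against T0 was -1.46 at 30 min and -1.79 at 12 h, and the median step from 30 min to 3 h was -0.05. All of the comparisons with T0 share the same T0 arrays, so they are not independent of each other. Whether the T0 arrays were high or the later ones low cannot be told apart. In bulk tissue, fewer dividing cells and less of these mRNAs per cell cannot be told apart.

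Mki67, which encodes the Ki-67 protein of cycling cells, read 5.31 and 5.48 in T3h replicates 1 and 2, against 7.44 and 8.40 in T0 replicates 1 and 2 (change -2.53 ± 0.36, adjusted p = 0.0614). Spc25, a kinetochore subunit, read 5.68 and 6.16 at T3h and 8.36 and 8.34 at T0 (-2.43 ± 0.32, adjusted p = 0.0614). Racgap1, which helps to build the cleavage furrow, read 5.24 and 4.46 at T3h and 7.15 and 7.30 at T0 (-2.38 ± 0.41, adjusted p = 0.121). In each of the 3 genes the T3h arrays lay more than 1 log2 unit below the T0 arrays. The topoisomerase gene Top2a read 6.81 and 6.66 at T3h and 8.46 and 8.89 at T0 (-1.94 ± 0.31, adjusted p = 0.0987). The kinase gene Melk read 5.34 and 5.24 at T3h and 7.08 and 7.37 at T0 (-1.94 ± 0.29, adjusted p = 0.062), and the mitotic kinesin Kif20a 5.68 and 5.72 at T3h and 7.49 and 7.44 at T0 (-1.77 ± 0.26, adjusted p = 0.0614). None of these passed, and their groups did not overlap. A second probe set of Top2a, with a low mean log2 signal of 4.11, differed by -0.40. The smallest change of the list was -0.40, and the 2 arrays of T3h were less alike for Cks2, which binds cyclin-dependent kinases (7.97 and 6.11 at T3h, 8.70 and 8.38 at T0).

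Most promoters found for these genes hold a short sequence in common. The CHR, or cell cycle genes homology region, is an element with the letters TTTGAA, known in human and mouse cells as a site of the DREAM and MuvB complexes that time late cell cycle genes. RefSeq promoters (assembly GRCr8, 250 bases before to 50 after each gene's start) were found for 20 of the 24 genes, and 16 of them (80.0%) hold these letters on either strand, against 18.1% of all 27457 promoters of the table. The nearest match lay within 50 bases of the start in 12 of the 16 genes, against 28.3% of all promoters that hold a match. The 4 with no match in this window were Aurka, Ccnb1, Kif20a and Melk. A match of letters is a description and not a measured site. The promoters of 3 genes with a match, taken from those of the list with large changes, are shown with the CHR letters in capitals. That of Mki67 is chr1:199952544-199952843 on the minus strand, with matches that begin 117 and 99 bases before the start, that of Spc25 is chr3:74396669-74396968 on the minus strand, with a match 57 bases before it, and that of Top2a is chr10:84473044-84473343 on the minus strand, where the letters lie on the reverse strand (TTCAAA) 22 bases before it.
Mki67: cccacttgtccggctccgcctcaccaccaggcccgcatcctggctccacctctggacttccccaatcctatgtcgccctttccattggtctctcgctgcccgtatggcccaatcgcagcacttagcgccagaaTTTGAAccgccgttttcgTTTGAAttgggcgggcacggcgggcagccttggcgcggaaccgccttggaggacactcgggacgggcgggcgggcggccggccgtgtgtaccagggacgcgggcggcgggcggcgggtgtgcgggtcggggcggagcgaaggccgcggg
Spc25: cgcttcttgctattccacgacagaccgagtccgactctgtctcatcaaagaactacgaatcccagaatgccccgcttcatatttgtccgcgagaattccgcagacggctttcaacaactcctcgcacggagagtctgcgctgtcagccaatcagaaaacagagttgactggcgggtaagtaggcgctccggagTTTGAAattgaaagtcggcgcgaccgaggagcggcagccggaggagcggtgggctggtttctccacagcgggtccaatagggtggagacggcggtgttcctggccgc
Top2a: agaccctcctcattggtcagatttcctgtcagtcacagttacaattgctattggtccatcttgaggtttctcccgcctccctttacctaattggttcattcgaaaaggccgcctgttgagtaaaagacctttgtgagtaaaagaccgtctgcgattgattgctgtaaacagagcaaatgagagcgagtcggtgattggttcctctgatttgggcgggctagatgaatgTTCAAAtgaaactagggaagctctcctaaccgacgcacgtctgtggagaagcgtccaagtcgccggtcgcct

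DNA replication genes were lower as well. All 20 measured genes had a negative change, 16 had groups that did not overlap, and 12 were lower at an unadjusted p under 0.05. The median change was -1.01, with -0.88 in T3h replicate 1 and -1.01 in T3h replicate 2 against the T0 mean, and 0 members passed over all probe sets. In CA1 the median against the same T0 arrays was -0.88 at 30 min and -1.01 at 12 h, and the median step from 30 min to 3 h was -0.001. Rrm1, the large subunit of ribonucleotide reductase, which makes deoxynucleotides, read 7.09 and 6.38 in T3h replicates 1 and 2, against 8.81 and 9.18 in T0 replicates 1 and 2. Its T3h arrays lay well below those of T0 (-2.26 ± 0.44, adjusted p = 0.203). Subunits of the replicative helicase gave -1.54 ± 0.53 for Mcm6, -1.50 ± 0.71 for Mcm2 and -1.10 ± 0.21 for Mcm3, and Rfc4, a subunit of the clamp loader, gave -1.35 ± 0.51 (adjusted p from 0.198 to 1). Mcm3 had the closest replicates, with 5.83 and 5.67 at T3h and 6.85 and 6.84 at T0.

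E2F factors are known to switch on replication genes before S phase. E2F letters, searched as TTTCCCGC and TTTGGCGC on both strands, were in 9 of 19 promoters of this list (47.4%), against 1.5% of all promoters, and in 0 of the 20 promoters of the mitosis list. CHR letters were in 1 of the 19. The promoter of Mcm3, chr9:30733697-30733996 on the minus strand, is shown because its letters (capitals, GCGGGAAA on the printed strand) begin 6 bases before the start and run across it.
Mcm3: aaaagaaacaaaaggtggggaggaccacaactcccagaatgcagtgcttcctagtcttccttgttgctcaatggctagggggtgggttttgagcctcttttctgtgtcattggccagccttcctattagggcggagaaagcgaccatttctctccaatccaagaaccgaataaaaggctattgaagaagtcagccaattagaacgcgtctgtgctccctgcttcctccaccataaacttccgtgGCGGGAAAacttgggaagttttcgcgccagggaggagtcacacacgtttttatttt

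Several leading lower genes lie outside these lists. Atad2, a chromatin ATPase of replicating cells, read 6.43 and 6.26 in T3h replicates 1 and 2, against 7.71 and 7.87 in T0 replicates 1 and 2 (-1.44 ± 0.18, adjusted p = 0.0614). Nes, the intermediate filament nestin of neural progenitors and reactive astrocytes, read 7.01 and 7.28 at T3h and 8.71 and 8.70 at T0 (-1.56 ± 0.23, adjusted p = 0.0614). Their groups were apart by more than the spread of their replicates, and neither passed. Mbtps2, a membrane protease that activates sterol regulatory factors, gave -1.10 ± 0.18 (adjusted p = 0.108), and the zinc finger gene Zfp217 -1.23 ± 0.21 (adjusted p = 0.121).

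The largest change of any gene was that of Cd93, whose protein sits on the surface of endothelium and of myeloid cells. It read 4.24 and 4.76 in T3h replicates 1 and 2, against 7.75 and 8.69 in T0 replicates 1 and 2 (-3.72 ± 0.55, adjusted p = 0.0614). Its T3h values lay below the array medians and its T0 values above them. A second probe set of Cd93, with a mean of 4.16, differed by 0.06, so the change rests on 1 probe set. Cd93 belongs to the 19 measured microglia and macrophage markers. Of the other 18, 4 were lower and 1 higher with groups that did not overlap, and their median change was -0.49. Over all 19 the median was -0.50, and it was -0.10 in T3h replicate 1 and -0.75 in T3h replicate 2 against the T0 mean. P2ry12, a purine receptor of resting microglia, read 6.01 and 5.04 at T3h and 7.06 and 6.75 at T0 (-1.38 ± 1.00, adjusted p = 1), and its second probe set, with a mean of 4.79, gave -0.27. The complement gene C1qa, at 10.04 and 9.41 at T3h and 9.87 and 10.7 at T0, had groups that overlapped.

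**Figure D2:**
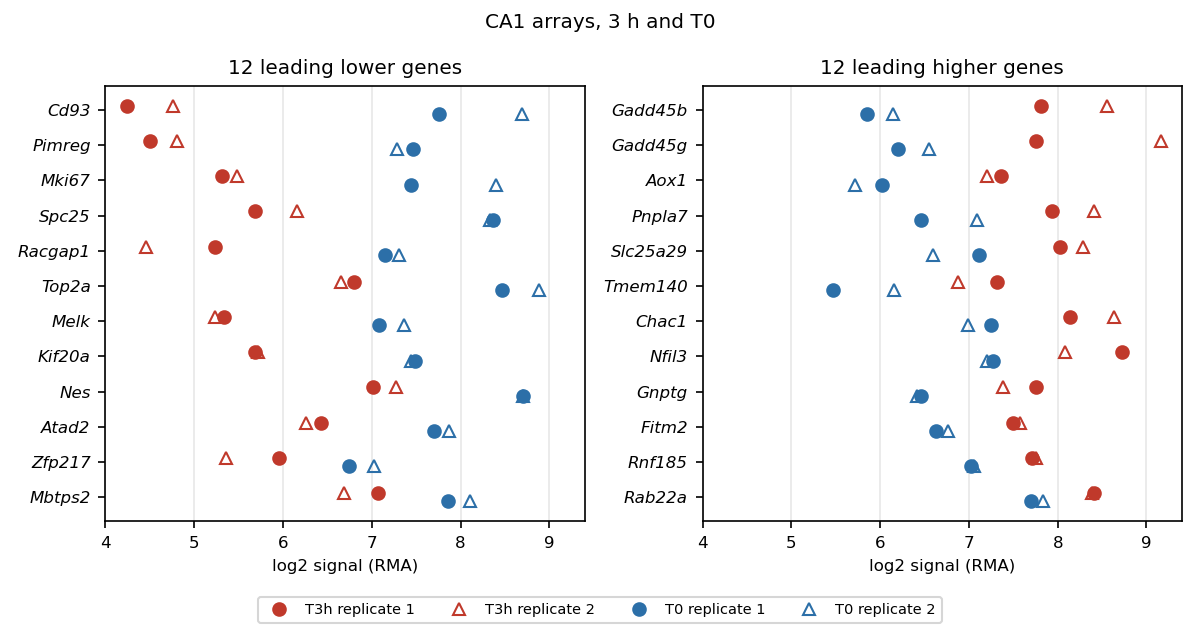
Log2 signal (x axis) of each CA1 array for the 12 lower and the 12 higher genes with the smallest p-values among those whose groups do not overlap, T3h in red above T0 in blue, replicate 1 as circles and replicate 2 as triangles. Of these genes Pimreg passed over all probe sets.

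Matrix and secreted genes gave some of the largest negative changes. Postn, the matrix protein periostin, read 5.80 and 6.60 in T3h replicates 1 and 2, against 8.74 and 10.2 in T0 replicates 1 and 2 (-3.29 ± 1.19, adjusted p = 0.888). Fn1, fibronectin, read 7.92 and 7.62 at T3h and 10.3 and 10.3 at T0 (-2.51 ± 0.61, adjusted p = 0.514). Mmp3, the matrix protease stromelysin 1, read 4.02 and 4.02 at T3h and 5.38 and 6.09 at T0 (-1.71 ± 0.56, adjusted p = 0.789). The T3h arrays of these 3 genes agreed within 1 log2 unit and lay below T0. Postn was measured as one of 14 fibroblast, meningeal and choroid plexus markers, of which 1 was higher and 2 lower without overlap, with a median of -0.04. The list of 34 matrix and protease genes, which holds Fn1 and Mmp3, had a median of -0.19. Against the T0 mean, the median was 0.00 in T3h replicate 1 and -0.57 in T3h replicate 2. Among the members whose groups did not overlap, 6 were lower and 2 higher. Fmod, the collagen-binding protein fibromodulin, was the member with the largest positive change (1.50 ± 0.68, adjusted p = 1), and Timp2, an inhibitor of matrix proteases, gave 0.79 ± 0.38 (adjusted p = 1; 0.10 in a second probe set).

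Cytosolic ribosomal protein genes were lower by a small amount. All 22 measured had negative changes, 19 had groups that did not overlap, and the changes ran from -0.73 to -0.15 with a median of -0.51. This median was -0.28 in T3h replicate 1 and -0.68 in T3h replicate 2 against the T0 mean, and 0 were lower at an unadjusted p under 0.05. With cyclic loess between the arrays the median was -0.13. Rpl22 read 11.7 and 11.5 in T3h replicates 1 and 2, against 12.2 and 12.5 in T0 replicates 1 and 2 (-0.72 ± 0.37, adjusted p = 1).

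Among the 12 leading higher genes, Gadd45b and Gadd45g had the largest changes. Gadd45 proteins bind cell cycle kinases and stress kinases and act in growth arrest and DNA repair. Gadd45b read 7.81 and 8.55 in T3h replicates 1 and 2, against 5.86 and 6.14 in T0 replicates 1 and 2 (2.18 ± 0.41, adjusted p = 0.185), which is 4.54 times its T0 signal. Gadd45g read 7.76 and 9.16 at T3h and 6.20 and 6.55 at T0 (2.08 ± 0.55, adjusted p = 0.628). Both T3h arrays exceeded both T0 arrays by more than 1 in each, and neither passed. The third member of the family, Gadd45a, read 6.65 and 4.84 at T3h and 4.84 and 5.06 at T0, with groups that overlapped (0.79 ± 0.89, adjusted p = 1). The list of these 3 genes and of targets of p53 had 14 measured genes, of which Gadd45b and Gadd45g were higher and 2 others lower without overlap, with a median of -0.13. Ccng1, a cyclin induced by p53, read 9.79 and 8.14 at T3h and 10.4 and 10.5 at T0 (-1.47 ± 0.65, adjusted p = 1), and Phlda3, an inhibitor of the kinase AKT, gave -0.82 ± 0.40 (adjusted p = 1).

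The integrated stress response was represented by a few genes. Chac1, an ATF4 target whose enzyme breaks down glutathione, read 8.14 and 8.64 in T3h replicates 1 and 2, against 7.25 and 6.995 in T0 replicates 1 and 2 (1.27 ± 0.28, adjusted p = 0.363). Trib3, a pseudokinase of the same pathway, read 7.06 and 7.14 at T3h and 6.12 and 6.06 at T0 (1.01 ± 0.32, adjusted p = 0.731), and its other 2 probe sets differed by 0.43 and 1.20. In both genes the T3h arrays lay close together and above T0. Ddit3, the transcription factor CHOP, read 7.31 and 9.09 at T3h and 7.10 and 7.04 at T0 (1.13 ± 0.52, adjusted p = 1), so most of its change came from T3h replicate 2. Ddit4, an inhibitor of mTOR signalling, gave 0.80 ± 0.81 (adjusted p = 1). Of the 28 measured genes, 10 were higher and 2 lower without overlap, with a median of 0.28 (0.21 in T3h replicate 1 and 0.26 in T3h replicate 2 against the T0 mean). Vegfa, the vascular growth factor, was among those that were lower (-0.35 ± 0.49, adjusted p = 1).

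Aox1, an aldehyde oxidase and a known NRF2 target, was the other gene at the head of the higher set. It read 7.36 and 7.20 in T3h replicates 1 and 2, against 6.02 and 5.72 in T0 replicates 1 and 2 (1.41 ± 0.27, adjusted p = 0.19). The leading higher set also held Slc25a29, a mitochondrial carrier of basic amino acids (1.30 ± 0.27, adjusted p = 0.318), Fitm2, a protein of lipid droplet formation (0.84 ± 0.19, adjusted p = 0.426), and Nfil3, a repressor of the circadian system (1.17 ± 0.29, adjusted p = 0.555). Its other members were Tmem140, a membrane protein (1.28 ± 0.33), Pnpla7, a lysophospholipase (1.40 ± 0.37), Gnptg, a subunit of the enzyme that tags lysosomal proteins (1.13 ± 0.30), the ubiquitin ligase Rnf185 (0.69 ± 0.17) and the endosomal GTPase Rab22a (0.63 ± 0.17), with adjusted p from 0.542 to 0.639. A second probe set of Rab22a gave 0.00. None of the higher genes passed.

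Immediate early genes, and the phosphatases and mRNA decay factors that curb such signals, were also set against 30 min. Of the 34 measured immediate early genes, 14 were higher and 0 lower than T0 without overlap, and the median change was 0.38 (0.16 in T3h replicate 1 and 0.64 in T3h replicate 2 against the T0 mean). Their median step from 30 min to 3 h was -0.10, with 20 negative and 14 positive steps. Fos, a subunit of the transcription factor AP-1, read 8.83 and 9.71 in T3h replicates 1 and 2, against 8.84 and 9.19 in T0 replicates 1 and 2. The groups overlapped (0.26 ± 0.59, adjusted p = 1). At 30 min Fos read 11.4 and 11.1, and the change from 30 min to 3 h was -2.01 ± 0.59 (adjusted p = 0.818; 0 probe sets passed for this step, 0%, and 905, or 5.7%, had an unadjusted p under 0.05). Of the 17 measured phosphatase and decay genes, 5 were higher and 1 lower than T0 without overlap, with a median change of 0.23 and a median step of -0.09. Zfp36, whose protein speeds the decay of AU-rich mRNAs, read 6.50 and 6.16 at T3h and 5.33 and 5.33 at T0 (1.00 ± 0.23, adjusted p = 0.467). It read 7.27 and 7.46 at 30 min, with a step of -1.04 ± 0.23 (adjusted p = 0.805). Dusp1, the phosphatase that shuts off stress kinases, read 7.56 and 7.97 at T3h and 5.41 and 7.24 at T0 (1.44 ± 0.82, adjusted p = 1), and its T0 arrays differed by more than the groups did. A second probe set of Dusp1, with a mean of 3.98, gave 0.13. Dusp2, a phosphatase of the same family, read 7.33 and 5.97 at T3h and 5.28 and 5.66 at T0 (1.18 ± 0.57, adjusted p = 1), and its step was 0.57 ± 0.57 (adjusted p = 0.89). Comparisons of 30 min and of 3 h with T0 share the T0 arrays, so the step from 30 min to 3 h was tested without them.

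Several immediate early genes stood above T0 without passing. Atf3, a stress-induced transcription factor, read 9.62 and 8.45 in T3h replicates 1 and 2, against 6.81 and 6.97 in T0 replicates 1 and 2 (2.15 ± 0.69, adjusted p = 0.764). Its T3h arrays lay above T0 by more than 1, and the step from 30 min was 0.13 ± 0.69 (adjusted p = 0.98). Nr4a3, an orphan nuclear receptor, gave 1.73 ± 0.93 (adjusted p = 1; 0.22 in a second probe set), its relative Nr4a1 0.62 ± 0.60 (adjusted p = 1), Inhba, a subunit of activin, 0.78 ± 0.31 (adjusted p = 0.985), and Junb, a partner of Fos, 0.49 ± 0.33 (adjusted p = 1). Egr1 separated the replicate numbers and not the times, with 6.82 and 9.99 at T3h and 7.10 and 9.996 at T0.

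Activity-dependent genes of neurons rested on T3h replicate 2. Bdnf, a neurotrophin, read 4.55 and 7.36 in T3h replicates 1 and 2, against 3.95 and 3.80 in T0 replicates 1 and 2 (2.08 ± 1.32, adjusted p = 1). Arc, a regulator of glutamate receptor traffic, read 5.61 and 7.77 at T3h and 5.63 and 6.03 at T0 (0.86 ± 0.75, adjusted p = 1), and Fosb read 6.09 and 7.80 at T3h and 5.53 and 5.46 at T0 (1.45 ± 0.74, adjusted p = 1). In all 3, T3h replicate 1 lay within 1 log2 unit of the T0 arrays. The CA1 arrays at 30 min read 5.78 and 7.14 for Bdnf, 6.18 and 7.44 for Arc and 6.31 and 6.50 for Fosb. Those at 12 h read 7.95 and 8.33 for Bdnf, 9.45 and 8.32 for Arc and 8.33 and 8.98 for Fosb. A second probe set of Bdnf, with a mean of 4.32, differed by 0.24.

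**Figure D3:**
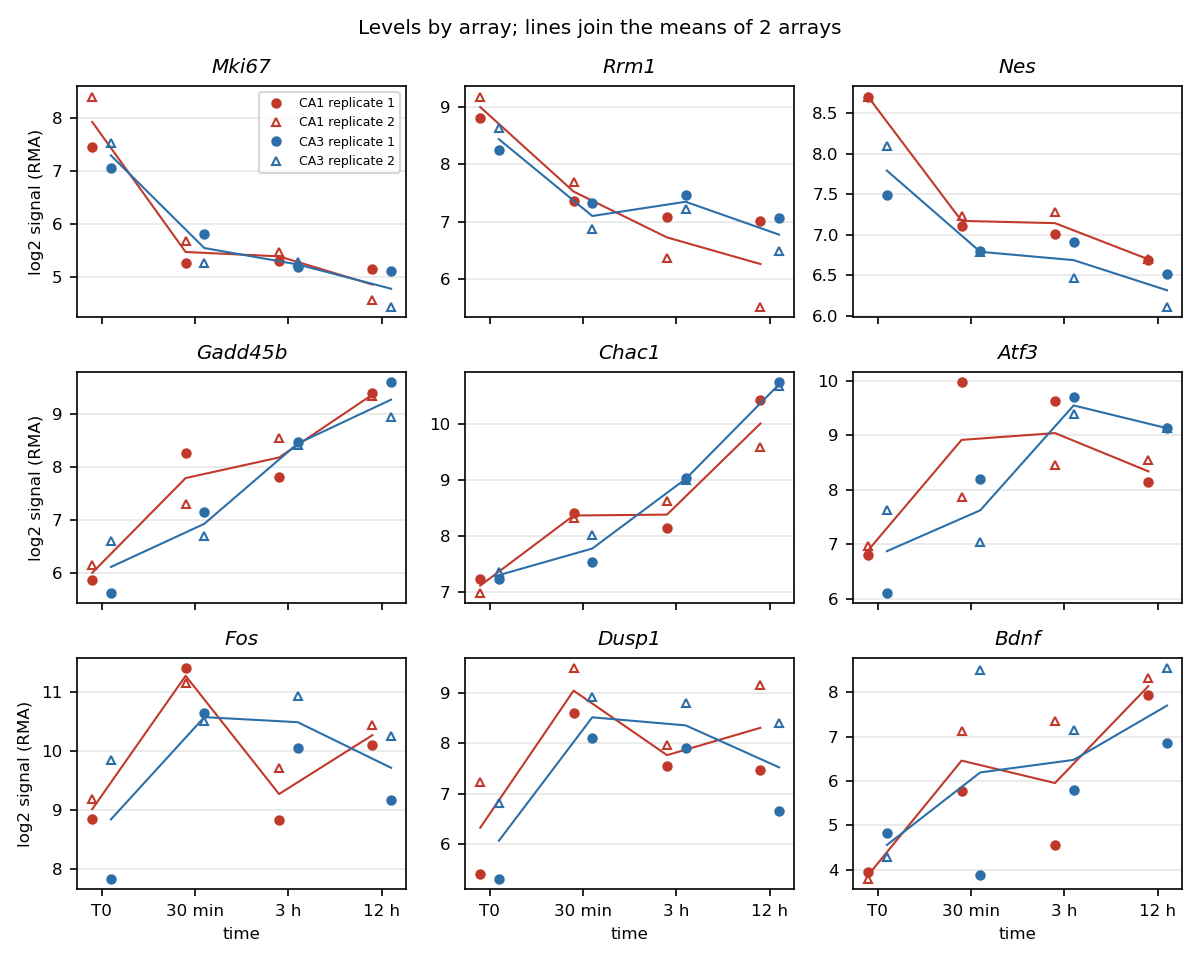
Log2 signal (y axis) of 9 genes in each array at T0, 30 min, 3 h and 12 h (x axis), CA1 in red and CA3 in blue, replicate 1 as circles, replicate 2 as triangles and lines through the means of 2 arrays. Mki67, Rrm1 and Nes were lower at 3 h than at T0 in both fields, and Fos in CA1 stood near its T0 level.

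Targets of NRF2 had a median change of 0.02 over 31 measured genes, with 7 higher and 3 lower without overlap. Hmox1, the inducible heme oxygenase, read 10.5 and 11.4 in T3h replicates 1 and 2, against 9.52 and 10.1 in T0 replicates 1 and 2 (1.10 ± 0.48, adjusted p = 1). Srxn1, which repairs oxidised peroxiredoxins, read 9.22 and 9.25 at T3h and 7.41 and 8.56 at T0 (1.25 ± 0.46, adjusted p = 0.896). Gsta4, a glutathione transferase for lipid aldehydes, gave 1.23 ± 0.47 (adjusted p = 0.941). In these 3 genes the groups did not overlap. Other well-known targets stood near 0 with overlapping groups, at -0.19 ± 0.54 for the quinone reductase Nqo1, -0.03 ± 0.51 for Gclm, a subunit of the rate-limiting enzyme of glutathione synthesis, and 0.10 ± 0.36 for the thioredoxin reductase Txnrd1 (adjusted p = 1 for each).

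Antioxidant response element (ARE) letters, searched as TGACNNNGC on both strands, were in 7 of 28 NRF2 target promoters (25%), against 12.2% of all promoters. The letters TGANTCA of AP-1 sites, which share bases with some ARE sites, were in 5 of them (17.9%), against 7.3% of all. The promoter of Srxn1, chr3:161064562-161064861 on the plus strand, is shown because it holds the AP-1 letters (capitals) at 62 and at 5 bases before the start. The match nearer the start reads TGAGTCAgc with the bases after it. The ARE search allowed only C after TGA, so it did not count this stretch or others with G there.
Srxn1: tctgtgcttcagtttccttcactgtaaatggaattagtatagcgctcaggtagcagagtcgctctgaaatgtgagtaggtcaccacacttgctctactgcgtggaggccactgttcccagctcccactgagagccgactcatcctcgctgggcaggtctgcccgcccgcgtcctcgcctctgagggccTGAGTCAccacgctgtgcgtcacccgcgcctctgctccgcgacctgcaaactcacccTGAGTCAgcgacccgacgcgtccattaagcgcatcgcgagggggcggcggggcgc

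Defence enzymes that remove superoxide and peroxide gave a median of -0.30 over 27 genes, with 0 higher and 6 lower without overlap. The median was 0.16 in T3h replicate 1 and -0.59 in T3h replicate 2 against the T0 mean, so its sign differed between the arrays. Prdx3, the mitochondrial peroxiredoxin, read 8.07 and 6.79 at T3h and 8.50 and 8.31 at T0 (-0.98 ± 0.42, adjusted p = 1). Sod3, the extracellular superoxide dismutase, gave -0.95 ± 0.42, and the glutaredoxin Glrx2 -0.67 ± 0.29 (adjusted p = 1 for each), with -0.23 in a second probe set of Glrx2. Heat shock protein genes had a median of 0.04 over 23, with 1 higher and 6 lower without overlap. Hspb1, the small heat shock protein of reactive astrocytes, separated the replicate numbers, with 11.7 and 9.79 at T3h and 11.8 and 9.59 at T0. Chordc1, a cochaperone of HSP90, gave -0.77 ± 0.44 and the mitochondrial chaperonin Hspd1 -0.60 ± 0.29 (adjusted p = 1 for each).

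Genes of the endoplasmic reticulum had a median of -0.30 over 23 measured (0.00 in T3h replicate 1 and -0.60 in T3h replicate 2 against the T0 mean), with 1 higher and 4 lower without overlap. Dnajb11, a chaperone of the BiP system, read 8.48 and 8.26 in T3h replicates 1 and 2, against 8.94 and 8.79 in T0 replicates 1 and 2 (-0.49 ± 0.19, adjusted p = 0.938). Glycolysis genes had a median of 0.05 over 28, with 6 higher and 5 lower without overlap. The glucose transporter Slc2a1 read 9.02 and 8.23 at T3h and 7.75 and 7.76 at T0 (0.87 ± 0.42, adjusted p = 1), while the lactate dehydrogenase Ldha read 10.4 and 9.62 at T3h and 11.6 and 11.0 at T0 (-1.30 ± 0.44, adjusted p = 0.846). These members lay on opposite sides of T0. Respiratory chain subunits (34 measured) had a median of -0.19. Against the T0 mean it was 0.13 in T3h replicate 1 and -0.54 in T3h replicate 2, so its sign differed between the arrays. Cholesterol genes (20) had a median of 0.02, and Bcl2 family and caspase genes (25) one of 0.05. Among the last, Apaf1, the core of the apoptosome, read 5.73 and 5.25 at T3h and 6.18 and 6.41 at T0 (-0.80 ± 0.24, adjusted p = 0.724), and its second probe set, with a mean of 5.01, gave -0.09.

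Cytokine, chemokine and NF-kB genes differed between the T3h arrays. Their median over 32 genes was 0.62 in T3h replicate 1 and -0.12 in T3h replicate 2 against the T0 mean, with 5 higher and 2 lower without overlap. Nfkbia, the inhibitor that NF-kB induces, read 9.06 and 7.51 at T3h and 7.21 and 7.21 at T0 (1.08 ± 0.64, adjusted p = 1), and Nfkb2 read 7.09 and 6.21 at T3h and 5.72 and 5.87 at T0 (0.86 ± 0.35, adjusted p = 1). Both were highest in T3h replicate 1, as was the chemokine Ccl4 (7.65 and 6.72 at T3h and 6.01 and 6.59 at T0). Ccl2, the monocyte chemokine, read 9.75 and 5.26 at T3h and 10.4 and 10.1 at T0 (-2.75 ± 2.37, adjusted p = 1). Of clock genes (17 measured, median 0.22), 6 were higher and 0 lower without overlap, among them the core activator Bmal1, with 5.32 and 5.19 at T3h and 4.56 and 4.28 at T0 (0.83 ± 0.23, adjusted p = 0.665).

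Of the 2 T3h arrays, neuronal genes were high mainly in replicate 2. Over 30 synaptic vesicle and growth genes the median was -0.30 in T3h replicate 1 and 1.53 in T3h replicate 2 against the T0 mean, and over 12 excitatory neuron markers it was -0.11 and 1.37. Groups did not overlap for 5 higher and 1 lower of the first list and for 2 higher and 0 lower of the second. At the other CA1 times, the median of the first list against T0 was 1.16 at 30 min and 2.09 at 12 h. That of the second list was 0.92 at 30 min and 2.21 at 12 h. Syn2, a synapsin of vesicles, read 4.43 and 7.79 in T3h replicates 1 and 2, against 4.26 and 4.07 in T0 replicates 1 and 2 (1.95 ± 1.55, adjusted p = 1). Gria2, an AMPA receptor subunit, read 8.31 and 10.2 at T3h and 8.28 and 7.34 at T0 (1.47 ± 0.81, adjusted p = 1), and Rgs4, a regulator of G protein signalling, 4.61 and 8.53 at T3h and 4.44 and 4.44 at T0 (2.13 ± 1.33, adjusted p = 1). Second probe sets gave 1.11 for Syn2, 1.54 for Gria2 and 0.45 for Rgs4. T3h replicate 1 lay at the level of T0 in all 3. Glutamate receptor genes (23, median 0.32) and ion channel genes (35, median 0.26) had medians of -0.01 in T3h replicate 1, against 0.56 and 0.50 in T3h replicate 2. The potassium channel gene Kcnd2 read 5.03 and 7.17 at T3h and 4.70 and 4.68 at T0 (1.41 ± 0.58, adjusted p = 1), while the NMDA receptor subunit gene Grin2c was highest in T3h replicate 1, with 7.51 and 6.13 at T3h and 5.83 and 5.60 at T0 (1.11 ± 0.36, adjusted p = 0.763). T3h replicate 2 had the highest GAPDH difference, and its part in these values was not tested.

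Some neuronal genes had both T3h arrays below both T0 arrays. Gap43, a protein of growing axons, read 7.53 and 7.83 in T3h replicates 1 and 2, against 9.42 and 9.41 in T0 replicates 1 and 2 (-1.74 ± 0.36, adjusted p = 0.318). It read 9.22 and 9.49 at 30 min, and its step from 30 min to 3 h was -1.68 ± 0.36 (adjusted p = 0.805). Both T3h arrays lay more than 1 below T0 and below 30 min, and a second probe set of Gap43 with a low mean of 3.28 gave 0.05. Reln, the signal of Cajal-Retzius cells and interneurons, read 6.75 and 7.59 at T3h and 8.96 and 10.3 at T0 (-2.48 ± 0.77, adjusted p = 0.724), and its second probe set, with a mean of 4.16, gave -0.31. The neuropeptide Npy read 7.85 and 10.8 at T3h and 11.0 and 11.9 at T0 (-2.09 ± 0.91, adjusted p = 1), with T3h arrays 3 log2 units apart. Both belong to the 12 measured inhibitory neuron markers, of which 2 were higher and 2 lower without overlap, with a median of -0.03. The higher members were Pvalb, the calcium-binding protein parvalbumin (0.46 ± 0.36), and Sst, the neuropeptide somatostatin (0.42 ± 0.71, adjusted p = 1 for each). Stmn2, a microtubule regulator of growing neurites, was among the 5 synaptic genes that were higher without overlap, with 7.78 and 7.72 at T3h and 6.92 and 5.76 at T0 (1.41 ± 0.82, adjusted p = 1), and its second probe set gave 1.41.

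Markers of CA1 itself were weak. Of 9 measured CA1 pyramidal markers 7 had means below that of the median probe set, among them Fibcd1, Mpped1 and Pou3f1. CA1 exceeded CA3 in 5 of the 9 at T3h, with a median difference of 0.01, and in 4 of the 9 at T0, with a median difference of -0.10. Of 7 measured CA3 pyramidal markers, CA1 exceeded CA3 in 3 at T3h, with a median difference of -0.13, and in 1 at T0, with a median difference of -0.18. Among them the kainate receptor subunit Grik4 differed by -0.84 at T3h and by -0.37 at T0. The medians of the CA3 markers lay slightly on the side that the labels give, but 4 of the 7 had means below that of the median probe set. Both sets were too low and too close between the fields to check the labels. Wfs1, the best known of the CA1 markers, read 6.27 and 6.56 in T3h replicates 1 and 2, against 6.20 and 6.02 in T0 replicates 1 and 2. Astrocyte markers were at or above the median probe set in 13 of 17 genes, with a summed linear signal of 42275 in T3h replicate 1 and 16691 in T3h replicate 2, against 32469 and 22647 in T0 replicates 1 and 2. The summed signal of 19 microglia markers was 13715 and 10774 at T3h, against 13196 and 19473 at T0, and that of 12 excitatory neuron markers 1745 and 3108 at T3h, against 1823 and 1680 at T0. Endothelial and mural cell markers were below the median probe set in 13 of 16 genes, among them Cldn5, Pecam1 and Vwf. Their part, and that of the other cell types, in the changes above was not tested.

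**Figure D4:**
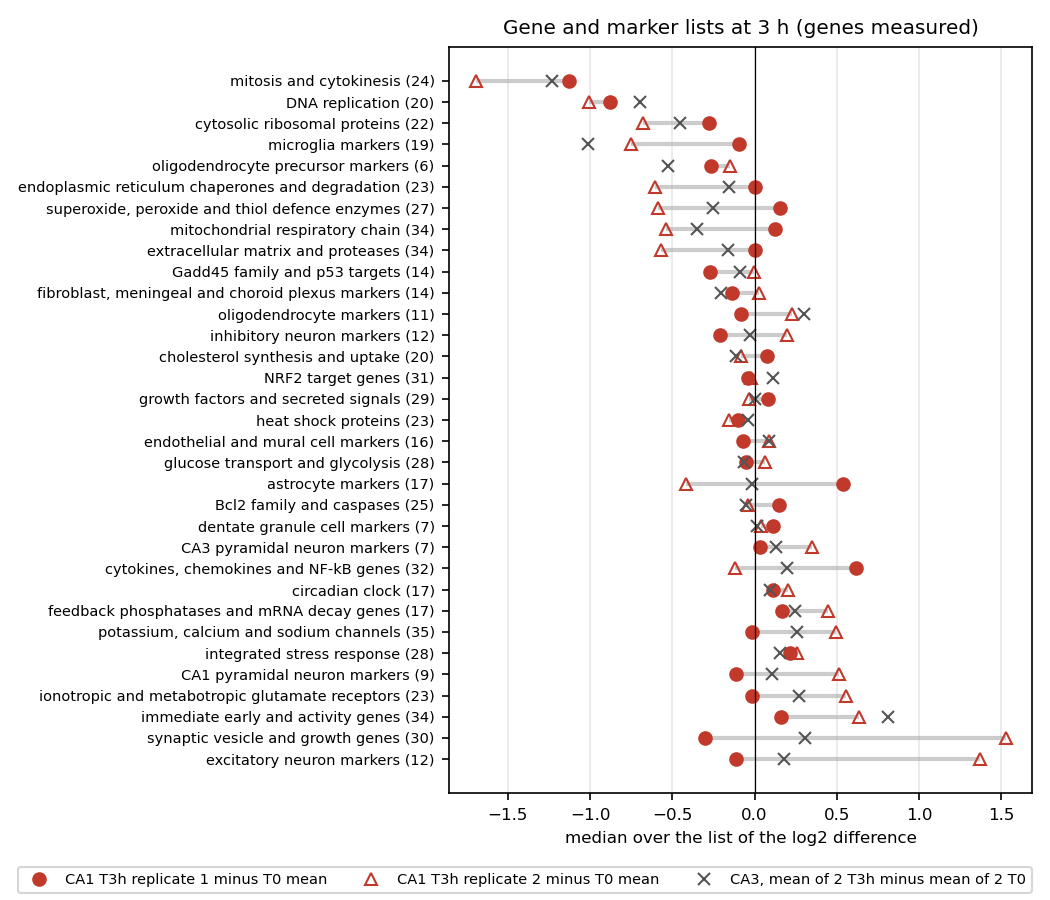
Median log2 difference (x axis) over each gene or marker list (rows, with the number of genes measured) for CA1 T3h replicate 1 and replicate 2, each minus the mean of the CA1 T0 arrays, and for CA3 at 3 h minus T0. Mitosis and DNA replication genes were at or below -0.88 in both CA1 arrays, while excitatory neuron and synaptic genes ran from below 0 in replicate 1 to above 1 in replicate 2.

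The change in CA3 was compared with that in CA1 to see where the fields differ. In CA3, 0 probe sets passed (limma; 0% higher and 0% lower, with 623, or 3.93%, at an unadjusted p under 0.05). Genes not overlapping there were 1664 higher (16%) and 1705 lower (16.4%). The 12 leading higher genes of CA1 were all higher in CA3 with groups that did not overlap, with changes from 0.38 to 2.89, and the 12 leading lower genes were all lower there, from -2.15 to -0.47. These genes were chosen on the CA1 arrays, and the lower ones could reach the level set for naming through T0 alone. CA3 arrays of the same number may share slices with those of CA1, so their values are a description and no independent test. The mitosis list had a median of -1.23 in CA3, with 23 of 24 below T0 without overlap, and the replication list one of -0.70. Over all 10411 genes the changes of the fields correlated at 0.70, while between unlike replicate numbers the correlation was 0.07 for number 1 of CA1 with number 2 of CA3 and 0.10 for number 2 of CA1 with number 1 of CA3.

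No change differed between the fields past the threshold (limma; smallest adjusted p = 1, 0 probe sets, 0%, and 55, or 0.347%, at an unadjusted p under 0.05). Cd93 had a change of -3.72 in CA1 and -1.52 in CA3, and the difference was -2.20 ± 0.78 (adjusted p = 1). Pimreg had -2.72 in CA1 and -1.47 in CA3, with a difference of -1.25 ± 0.43 (adjusted p = 1). Fos had 0.26 in CA1 and 1.65 in CA3, where it read 10.05 and 10.9 at T3h and 7.83 and 9.84 at T0, and the difference was -1.40 ± 0.84 (adjusted p = 1). The immediate early list had a median of 0.38 in CA1 and 0.81 in CA3. A p that misses the threshold does not show that the fields responded alike. This fit also took the fields as unpaired, although their arrays of the same number deviated together (0.58 for T3h, 0.57 for T0).

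**Figure D5:**
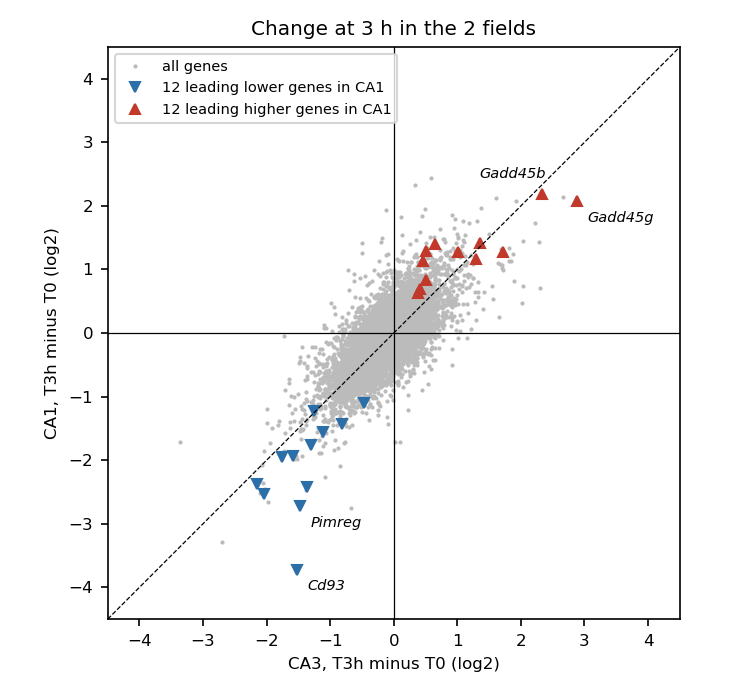
Log2 change at 3 h from T0 in CA1 (y axis) against that in CA3 (x axis) for 10411 genes, with the dashed line of equal change and the 12 higher and 12 lower leading genes of CA1 marked. All 24 lie on the same side of 0 in both fields, and Cd93 and Pimreg lie farther from 0 in CA1.

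Across all 16 arrays, the genes most like Pimreg by Pearson correlation were Plk4, a kinase of centriole duplication (0.973), Spc25 (0.963), Dscc1, a subunit of a clamp loader (0.943), Mki67 (0.940) and Mcm3 (0.937). Those most like Gadd45b were Gadd45g (0.953), Chac1 (0.917), Rnf185 (0.912) and Trib3 (0.871). Dusp1 was the gene most like Fos (0.866), and Zfand2a, a stress-induced proteasome adaptor, the one most like Hmox1 (0.837). These correlations describe 16 arrays that share times, fields and replicate numbers.

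In CA1 at the other times, given as levels only, Mki67 read 5.26 and 5.69 at 30 min and 5.16 and 4.57 at 12 h. Its 3 h arrays, at 5.31 and 5.48, lay within that range. Gadd45b read 8.27 and 7.31 at 30 min and 9.39 and 9.35 at 12 h, and Chac1 8.42 and 8.33 at 30 min and 10.4 and 9.60 at 12 h, so that their 3 h levels lay near those at 30 min and below those at 12 h. Hmox1 read 9.96 and 9.35 at 30 min and 10.9 and 10.5 at 12 h. Cd93 stood at 4.55 and 4.39 at 30 min and at 4.83 and 4.27 at 12 h, close to its 3 h level.

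The rule for naming genes took 136, and the 46 whose values are not given had changes from -0.81 to 1.15 with adjusted p from 0.949 to 1.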

How the data were processed

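Total RNA of CA1 and CA3 from rat slice cultures was labelled in 2 cycles with biotin and hybridised to 16 arrays, 2 for each of 4 times and 2 fields, per the labels. The deposited values are log2 signals that the authors obtained by RMA, a step named in the submitters' processing notes without a version. RMA equalises the distributions of probe intensities between arrays before it summarises them, so a change of total mRNA cannot be seen in the values. The summarised values can still differ in spread between arrays. The table held 15923 probe sets, of which 57 controls were set aside. The platform annotation gave 1 gene for 12783 probe sets, several for 312 and none for 2771. Each of 10411 genes is represented by its probe set of highest mean. Its names were matched to RefSeq (GRCr8) for 12748 probe sets.

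In limma 3.58.1 (R 4.3.3), 8 group means were fitted over 16 arrays, and the script was tested on simulated data. Genes were named if they passed in CA1, in the difference of the fields or in the step from 30 min, if they were among the 12 higher and 12 lower genes with the smallest p whose groups did not overlap and whose mean reached that of the median probe set, if they had one of the 4 largest changes without overlap in a list, or if they were set by name. Other members were named after their values were seen. The members, 22 gene lists and 11 marker lists were chosen with earlier results of these data known. Alternatives changed the block, the normalization, the filter, the prior, the covariate, the arrays fitted and the probe set. Motifs were searched on both strands of RefSeq promoters, from 250 bases before to 50 after the start. The number of arrays limits the precision.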

Additional observations from a re-analysis of the deposited data

Results flagged for a closer look

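Cldn11, the claudin of myelin tight junctions, was drawn out because its arrays moved in opposite directions in the fields. In CA1 it read 10.5 and 10.4 in T3h replicates 1 and 2, against 10.8 and 11.4 in T0 replicates 1 and 2, so both T3h arrays lay below both T0 arrays. In CA3 it read 11.7 and 11.7 at T3h and 11.1 and 11.6 at T0, so both lay above. The change was -0.59 ± 0.42 in CA1 and 0.30 ± 0.42 in CA3, and the difference of -0.89 ± 0.59 did not pass (limma, adjusted p = 1). A second probe set, with a mean log2 signal of 3.97, gave -0.04 in CA1. Cldn11 belongs to the 11 measured oligodendrocyte markers. In CA1, 3 of them were higher and 2 lower without overlap, with a median change of -0.04. In CA3, 7 were higher and 0 lower, with a median of 0.30. Of all genes, 15.5% were lower without overlap in CA1 and 16% were higher without overlap in CA3.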

How the results depend on the processing

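The count of probe sets past the threshold for CA1 at 3 h was 1 as reported, and lower. With dim probe sets left out it was 0, but that filter dropped Pimreg, whose mean over all arrays lay below that of the median probe set. The filter therefore could not test the reported call. The count was 0 with the CA1 arrays alone and with the 4 arrays alone. It was 8 with a trended prior and 9 with the GAPDH difference as a covariate (1 of them higher). With cyclic loess or with the pair as a random block it was 1. With the replicate block it was 10, all lower, among them Atad2, Kif20a, Reln and Spc25. Same-numbered CA1 T3h and T0 arrays deviated together at 0.31, and over all 28 pairs of groups this ran from -0.24 to 0.67, above 0.1 in 23. The 5 pairs of groups at or under 0.1 were all of unlike times. Within a time, CA1 and CA3 arrays of the same number deviated together at 0.57 to 0.67. With 2 numbers and no label that explains them, the numbers were not taken to pair the samples. The reported difference of the fields thus leaves out what the fields share within a time. With the pair as a random block, 218 probe sets had an unadjusted p under 0.05 for this difference (limma), and 0 passed. Leaving out single arrays gave 0 to 0 calls for CA1, 0 to 1 for the difference of the fields (1 without CA3 T0 replicate 1), 0 to 5 for CA3 (1 without CA3 T3h replicate 2 and 5 without CA3 T0 replicate 1) and 0 to 2 for the step from 30 min (2 without CA1 30 min replicate 2). The other settings gave 0 calls for those 3 comparisons. Directions held for 80 of the 90 genes checked in the settings of the fit and in other probe sets. On leaving out single arrays, Arc ran from -0.22 to 1.94, Egr1 from -1.73 to 1.44, Fos from -0.18 to 0.69, Gclm from -0.74 to 0.69, Hspb1 from -1 to 1.18, Nqo1 from -0.68 to 0.29 and Txnrd1 from -0.19 to 0.39. With cyclic loess Egr1 was 0.05 and Nqo1 0.08, and other probe sets gave 0.06 for Cd93, 0.05 for Gap43 and 0.00 for Rab22a. The cause was not tested. Of the recomputed medians of gene lists, 31 moved by more than the spread set for them and 167 did not. The mitosis median was -1.13 without T3h replicate 2, which has the highest GAPDH difference. With 2 arrays in each group, changes of genes whose replicates differ by more than 1 could not be resolved.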

Other observations

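The genes that parted the T3h arrays most were looked up after the values were seen, so they are a description only. Among those highest in T3h replicate 2 over replicate 1, Homer1, a postsynaptic scaffold, read 3.97 and 9.14 in T3h replicates 1 and 2, against 5.90 and 5.78 in T0 replicates 1 and 2. Rbfox3, which encodes the neuronal nuclear antigen NeuN, read 4.70 and 8.69 at T3h and 5.87 and 4.77 at T0, and the non-coding RNA Meg3 4.79 and 9.75 at T3h and 5.81 and 5.82 at T0. T3h replicate 1 lay below both T0 arrays in these 3 genes.

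Genes of several kinds were highest in T3h replicate 1 over replicate 2. Clu, the chaperone clusterin, read 12.6 and 7.84 in T3h replicates 1 and 2, against 10.6 and 6.55 in T0 replicates 1 and 2. The iron carrier Lcn2 read 12.3 and 7.61 at T3h and 11.7 and 9.79 at T0, and the protease inhibitor A2m 11.1 and 6.99 at T3h and 10.1 and 6.08 at T0. The difference was largest for Calb1, the calbindin of dentate granule cells and of part of the CA1 neurons, which read 10.7 and 5.49 at T3h and 11.1 and 8.45 at T0. In all 4 genes the replicate 1 arrays of both times lay above the replicate 2 arrays. The shares of cell types in the samples were not measured.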
